A study of Mus musculus with 19 samples.

Results

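The genes described here are 10 sensors, proteases, kinases and transcription factors of the unfolded protein response: Ern1, Eif2ak3, Atf6, Xbp1, Mbtps1, Mbtps2, Atf4, Ddit3, Eif2ak4 and Eif2ak1. They were taken by symbol from a count table of 46095 rows, and all 10 had a row and passed the filter on low counts in both cell types. The table covers 19 RNA sequencing libraries from bone marrow of C57bl/6 mice, in a series whose title connects hypergravity, osteoclast formation and this response. Mice of the hypergravity groups were centrifuged at 15 G for 15 min over about 1 or 3 weeks, and normally fed controls are listed at 0 G. Libraries came from bone marrow-derived macrophages (BMDM), which are grown from marrow precursors in the growth factor M-CSF, and from bone mesenchymal stem cells (BMSC), the stromal cells of marrow. The 1 week set held 3 control and 2 hypergravity libraries of BMDM and 3 of each for BMSC. The 3 week set held 2 control and 2 hypergravity libraries of each cell type. The labels give the 1 week controls no duration. They were matched here to the 1 week animals because the titles of both lack the 3 week mark, and no label states this match. No sex, age or genetic change is given, and the growth protocol describes macrophage medium for BMSC as well. Nothing says whether replicates came from separate animals, so the spread behind each p-value is that between these libraries and may be technical.

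Proteins that enter the endoplasmic reticulum (ER) fold there with the help of chaperones, and misfolded protein activates sensors in the ER membrane. IRE1, the product of Ern1, is a kinase and nuclease that cuts Xbp1 mRNA, after which the mRNA is joined in a new reading frame and yields an active transcription factor. PERK, the product of Eif2ak3, phosphorylates the translation factor eIF2, as do GCN2 (Eif2ak4), which senses amino acid shortage, and HRI (Eif2ak1), which senses heme shortage and mitochondrial stress. Phosphorylated eIF2 slows translation in general and favours translation of Atf4, whose product switches on genes of amino acid supply and Ddit3, the gene of CHOP. ATF6 travels to the Golgi, where the site-1 and site-2 proteases (Mbtps1 and Mbtps2) release its active part, and the same proteases process the SREBP factors of cholesterol synthesis. In macrophages and osteoclasts, cells with a high secretory load, these arms are studied as regulators of cytokine output and differentiation. Gene counts measure none of the phosphorylation, cleavage or splicing steps: spliced and unspliced Xbp1 mRNA fall in the same row.

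The promoters of the 4 members with the largest fitted changes in BMDM at 1 week are shown because 3 of these genes were higher and 1 lower in the same libraries. Each is the 250 bases before the RefSeq start on GRCm38.p6, written 5′ to 3′ on the gene's strand, with CCAAT boxes of either strand in capitals (ATTGG where the box is on the other strand).
Ern1, chr11:106487797-106488046, minus strand: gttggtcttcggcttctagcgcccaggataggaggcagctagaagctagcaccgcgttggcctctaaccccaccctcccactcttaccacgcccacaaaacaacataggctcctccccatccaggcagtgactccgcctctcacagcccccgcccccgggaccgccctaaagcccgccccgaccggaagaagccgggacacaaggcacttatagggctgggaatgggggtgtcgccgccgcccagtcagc
Atf4, chr15:80254934-80255183, plus strand: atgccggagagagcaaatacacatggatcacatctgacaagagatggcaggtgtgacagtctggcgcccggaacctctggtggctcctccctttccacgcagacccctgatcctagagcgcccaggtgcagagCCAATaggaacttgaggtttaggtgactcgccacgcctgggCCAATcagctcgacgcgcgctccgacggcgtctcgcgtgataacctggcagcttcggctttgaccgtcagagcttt
Ddit3, chr10:127290543-127290792, plus strand: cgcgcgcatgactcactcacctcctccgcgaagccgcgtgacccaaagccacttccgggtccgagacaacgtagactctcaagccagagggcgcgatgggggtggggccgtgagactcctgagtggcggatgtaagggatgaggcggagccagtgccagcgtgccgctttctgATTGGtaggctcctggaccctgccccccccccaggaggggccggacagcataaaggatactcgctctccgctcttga
Eif2ak3, chr6:70844265-70844514, plus strand: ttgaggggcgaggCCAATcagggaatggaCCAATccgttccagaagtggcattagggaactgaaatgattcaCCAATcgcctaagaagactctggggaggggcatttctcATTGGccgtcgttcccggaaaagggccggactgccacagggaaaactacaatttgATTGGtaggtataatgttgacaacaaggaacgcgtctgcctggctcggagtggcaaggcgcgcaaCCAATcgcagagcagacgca
Motifs were searched on both strands in the RefSeq windows of 300 bases (250 before and 50 after the start), which 9 of the 10 members have. The CCAAT box, the core of which is CCAAT, occurred 6 times in the window of Eif2ak3, 2 times in that of Atf4 and 1 time in those of Ddit3 and Eif2ak1. At least 1 CCAAT box was held by 37.4% of 32851 windows of that length, at least 2 by 11.7% and at least 6 by 0.0791%. The ER stress element, which contains a CCAAT box and was searched as CCAAT, any 9 bases and CCACG, is held by 0.119% of these windows, the XBP1 element TGACGTGG by 0.676% and the CHOP and ATF4 element TGATGNAA by 3.97%. None of these 3 was found in a window of a member, which says only that these letters are not in those bases.

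Library totals ran from 16.32 to 33.02 M counts (1e6). CPM below are counts per 1e6 counts of a library, and log2 fold changes (± SE) were fitted in edgeR after TMM scaling. In BMDM at 1 week the TMM factors were 0.853 and 0.868 under hypergravity and 1.02 to 1.05 in controls. Fitted rises are accordingly larger, and fitted falls smaller, than ratios of CPM. Without TMM, scaling by library totals moved the median of all genes in that comparison from -0.03 to -0.29. Macrophage markers were abundant in every library: the 10 genes summed to 23310 to 28290 CPM in BMSC and to 23810 to 32020 CPM in BMDM. The BMSC libraries thus carried macrophage RNA in amounts that overlapped those of BMDM. The 9 neutrophil markers summed to 1123 to 3107 CPM in BMSC and to 55.46 to 615.6 CPM in BMDM. The names BMDM and BMSC, and the cell types compared below, are therefore those of the labels only. The 12 stromal markers summed to 2941 to 15990 CPM in BMSC libraries and to at most 129.6 CPM in BMDM. In these bulk samples, fewer cells of a type and less RNA per cell cannot be told apart.

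**Figure D1:**
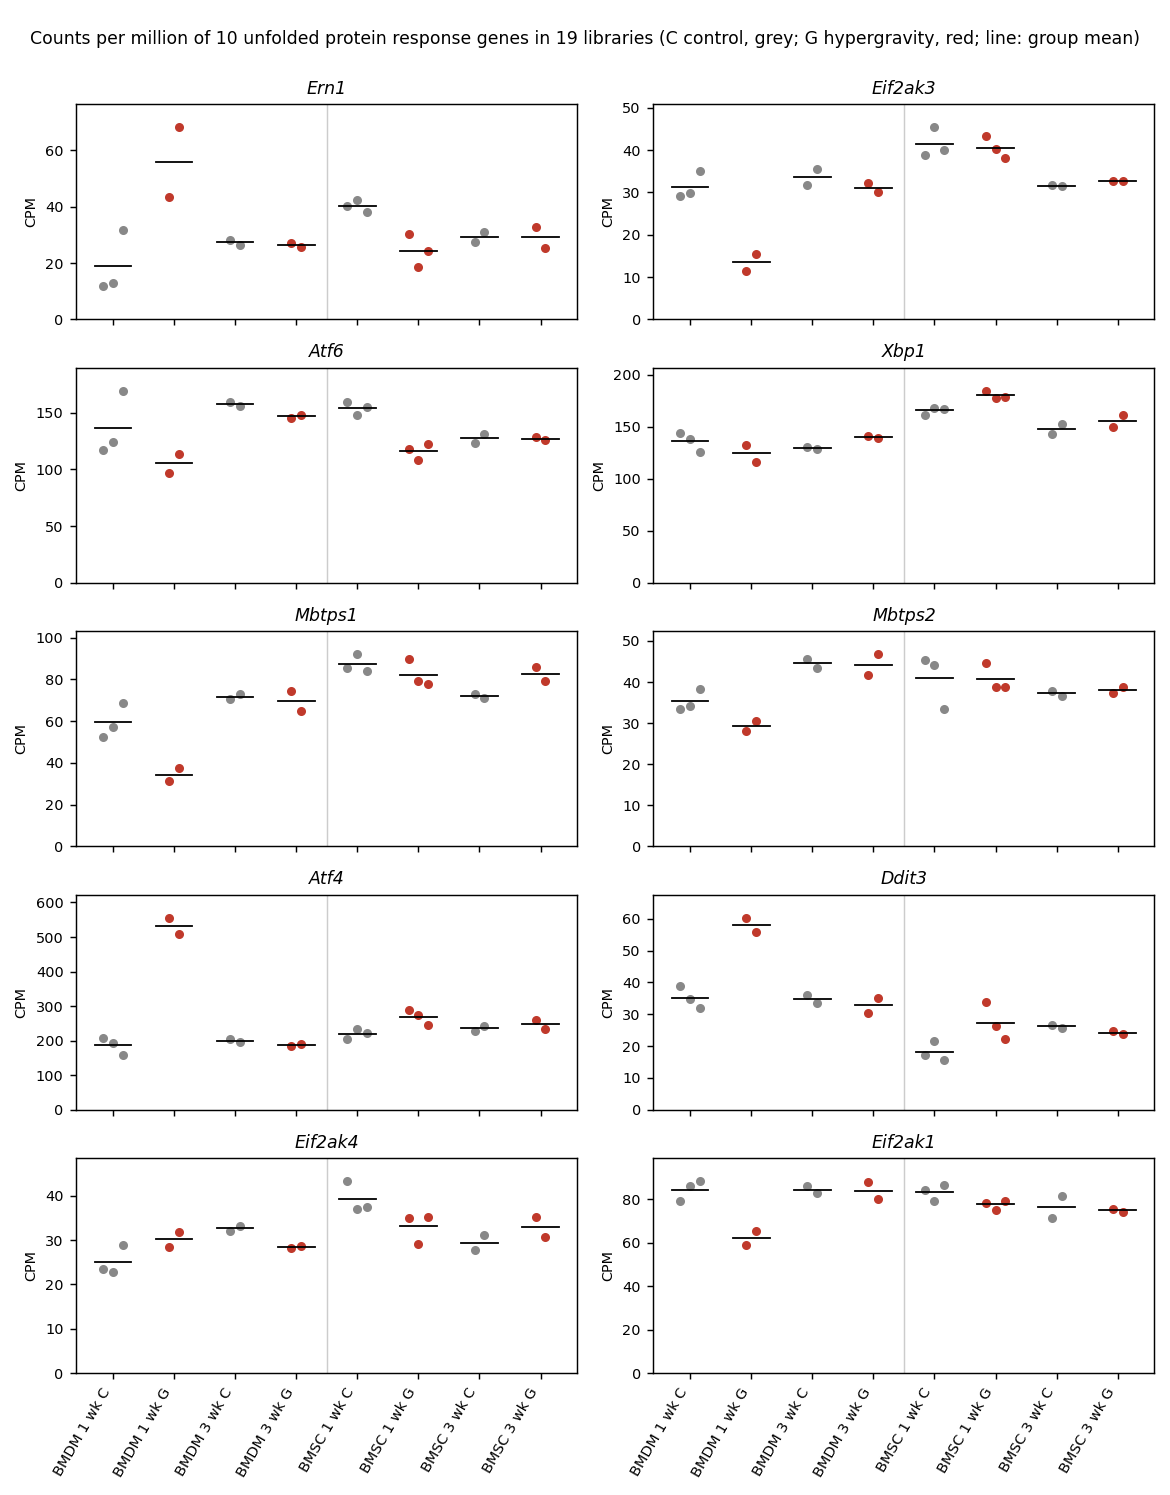
CPM of the 10 genes (vertical axes, from 0) in each of the 19 libraries, 1 point per library and a line at each group mean; grey is control (C) and red is hypergravity (G). Atf4 sits at 509.4 and 555.4 CPM in the 1 week hypergravity BMDM libraries and between 158.3 and 289.6 CPM in the other 17.

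In BMDM after 1 week of hypergravity the genes of the 3 ER arms did not move together. Ern1, Atf4, Ddit3 and Eif2ak4 were higher and Eif2ak3 and Mbtps1 lower, while Atf6, Xbp1, Mbtps2 and Eif2ak1 did not pass the test. Members were thus called in 6 of 10 cases at a Benjamini-Hochberg adjusted p below 0.05, in a comparison where edgeR called 61.4% of all 13842 genes tested (30.5% higher and 30.8% lower). The median log2 change of the 10 was 0.07, and that of all genes was -0.03. The CPM of the groups did not overlap for 8 members, against 73.1% of all genes. Both shares of the members were near those of all genes.

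In the IRE1 arm, the sensor gene moved and its substrate did not pass. Ern1 (chr11:106394650-106487852, mm10, minus strand, 22 exon blocks) stood at 11.76, 12.97 and 31.85 CPM in the 3 controls and at 43.35 and 68.12 CPM under hypergravity. The groups did not overlap, but control replicate 3 was far above the other controls and hypergravity replicate 2 well above replicate 1. The log2 change was 1.84 ± 0.35 (edgeR adjusted p = 0.00116), a 3.59-fold rise, and it was 2.42 ± 0.17 without control replicate 3. Xbp1 (chr11:5520659-5525893, plus strand) was measured at 143.5, 138.4 and 125.5 CPM in controls and at 132.3 and 116.2 CPM under hypergravity. These ranges overlapped, and the fitted change was 0.13 (95% interval -0.09 to 0.36), opposite in sign to the difference between the CPM means, which carry no TMM scaling, and it was -0.13 with scaling by totals.

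Partners of IRE1 were called higher in 4 of 7 cases with none lower. For this list and those below, the same comparison called 30.5% of all genes higher and 30.8% lower. All these lists were chosen with earlier results of these data known. Traf2, the adaptor that links IRE1 to kinase signalling, rose from a mean of 17.44 to 61.33 CPM (log2 2.08 ± 0.10, edgeR adjusted p = 1.01e-07). Tmbim6, which encodes the IRE1 inhibitor BI-1, the adaptor gene Nck1 and the translocon gene Sec61a1 rose by 0.52, 0.64 and 0.59. Of 17 target genes of XBP1 tested, with Sec61a1 counted again, 10 rose and 2 fell, with a median of 0.43. Among them Serp1, a stabiliser of the translocon, rose from 389.0 to 638.0 CPM and the co-chaperone gene Dnajb9 from 54.06 to 78.24 CPM, with Ssr3 (0.68) and Sec24d (1.01) also higher. Of 6 transcripts that IRE1 is known to degrade, 3 fell and 2 rose. Bloc1s1, the best known of these, fell from 28.33 to 10.73 CPM (-1.14 ± 0.15, adjusted p = 8.1e-05), as did Col6a1 (4.44 to 0.859 CPM), while Pdgfrb (1.98 to 11.7 CPM) and Pmp22 (219.7 to 257.2 CPM) rose.

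Among the eIF2 kinases, PERK and GCN2 transcripts moved in opposite directions. Eif2ak3 (chr6:70844515-70905245, plus strand) was at 29.22, 29.76 and 35.13 CPM in controls and at 11.46 and 15.54 CPM under hypergravity. Both hypergravity libraries lay far below every control, and the change was -0.94 ± 0.14 (edgeR adjusted p = 0.000255), a level 1.92-fold lower. Eif2ak4 (chr2:118388618-118475234, plus strand) read 23.46, 22.84 and 28.93 CPM in controls against 28.33 and 31.92 CPM, ranges that overlapped through control replicate 3. Its change of 0.53 ± 0.11 passed (adjusted p = 0.00246) but was 0.27 with an adjusted p of 0.076 when libraries were scaled by their totals. Eif2ak1 (chr5:143817788-143904251, plus strand) gave 79.15, 85.95 and 88.2 CPM in controls and 59.17 and 65.27 CPM under hypergravity. Its CPM did not overlap, yet after TMM scaling the change was -0.18 (95% interval -0.38 to 0.03, adjusted p = 0.121), while scaling by totals gave -0.44 (adjusted p = 0.00259). The PKR gene Eif2ak2, the remaining eIF2 kinase, rose from 87.78 to 191.7 CPM (1.40 ± 0.26), and Impact, which encodes an inhibitor of GCN2, from 115.9 to 240.1 CPM.

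On the substrate side of this arm, a list of eIF2, eIF2B and eIF2 phosphatase genes plus Dnajc3 had 9 of 11 genes called higher and 1 lower. Dnajc3 is also in the list of XBP1 targets. Ppp1r15a, the stress-induced phosphatase subunit GADD34, rose from 30.23 to 327.4 CPM (3.70 ± 0.10, edgeR adjusted p = 2.31e-09). Its constitutive relative Ppp1r15b rose from 108.0 to 270.4 CPM. Eif2s1, the subunit that the 4 kinases phosphorylate, rose by 0.87 and Eif2s2 by 1.29.

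Atf4 (chr15:80255184-80257541, plus strand) had the second largest change among the members and the smallest p. It was measured at 207.1, 193.1 and 158.3 CPM in controls and at 555.4 and 509.4 CPM under hypergravity. The lowest hypergravity library was above 2 times the highest control, and the log2 change was 1.78 ± 0.12 (edgeR adjusted p = 7.39e-07), or 3.43-fold. Ddit3 (chr10:127290774-127296288, plus strand) stood at 38.9, 34.83 and 32.05 CPM in controls and at 60.27 and 55.76 CPM under hypergravity. The groups were apart and close within themselves, with a change of 0.98 ± 0.12 (adjusted p = 4.68e-05), or 1.97-fold. Ddit3 shares 68 bases of its exons with Mars on the other strand and 105 with another gene entry of the same name, and how such reads were counted is not given in the sources used here.

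Of 29 tested target genes of ATF4 and CHOP, 26 rose and none fell, with a median of 2.50 against -0.03 over all genes. Because the list was chosen with earlier results of these data known, its count is a description only. Ero1l, an ER oxidase gene downstream of CHOP, rose from 42.67 to 605.9 CPM (4.09 ± 0.10, edgeR adjusted p = 1.24e-09). Aars, which encodes alanyl-tRNA synthetase, rose from 71.7 to 279.5 CPM and Slc3a2, the heavy chain of amino acid exchangers, from 240.7 to 1200 CPM. Ppp1r15a belongs to this list too. The 9 dimer partners of ATF4 and CHOP and related factors were called without exception, 7 higher and 2 lower. Atf3 and Trib3 are counted both here and among the targets. Batf2 rose from 6.66 to 89.6 CPM, Jdp2 from 6.16 to 26.9 CPM and Trib3, a pseudokinase gene induced by ATF4 and CHOP, from 4.40 to 31.5 CPM. Cebpa, a myeloid lineage factor, fell from 220.2 to 70.69 CPM (-1.38 ± 0.13).

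In the ATF6 arm, the factor and the site-2 protease did not pass and the site-1 protease fell. Atf6 (chr1:170704674-170867771, minus strand) gave 116.6, 124.2 and 169.0 CPM in controls and 96.71 and 113.7 CPM under hypergravity. Its CPM did not overlap, but the fitted change was -0.11 (95% interval -0.43 to 0.20). It was -0.20 with a trend on exon length and GC content removed (adjusted p = 0.047). Mbtps1 (chr8:119508156-119558735, minus strand) fell from 52.33, 57.28 and 68.49 CPM to 31.24 and 37.35 CPM. Both hypergravity libraries were below all controls (-0.52 ± 0.13, edgeR adjusted p = 0.0053), and the call was lost without hypergravity replicate 1 (-0.42, adjusted p = 0.0605). Mbtps2 (chrX:157535371-157598715, minus strand) read 33.33, 34.28 and 38.2 CPM in controls and 28.18 and 30.44 CPM under hypergravity, and its fitted change was near 0 (95% interval -0.22 to 0.21), against -0.26 with scaling by totals (adjusted p = 0.0447). It shares 28.4% of its exonic bases with Yy2 on the same strand, so the split of reads between them is uncertain. Of 15 ATF6 targets 9 rose and 2 fell, with a median of 0.30, in a comparison that called 61.4% of all genes in either direction. The chaperone gene Hspa5 rose by 1.06 ± 0.09 (adjusted p = 3.84e-06), and Hyou1 (1.09), the disulfide isomerase gene P4hb (1.04) and the calnexin gene Canx (0.50) rose too. SREBP genes, which rely on the same proteases, split evenly, with 4 of 10 higher and 4 lower. Insig1, an ER retention factor, rose from 49.23 to 94.84 CPM and Insig2 from 40.05 to 87.33 CPM, while Hmgcs1, an enzyme of cholesterol synthesis, fell from 73.99 to 21.64 CPM and Sqle, another, rose from 24.25 to 39.67 CPM.

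Other gene groups moved in the same libraries. The 10 macrophage markers summed to 28730 to 32020 CPM in the 1 week controls and 23810 to 24270 CPM under hypergravity. EdgeR called 3 of them higher and 5 lower. The 15 NF-kB inflammatory genes summed to 214.4 to 288.8 CPM in the 1 week controls and 34180 to 35250 CPM under hypergravity, and the 10 proliferation genes to 878.7 to 1063 and 333.4 to 338.2 CPM. Mitochondrially encoded counts made up 1.37 to 1.40% and 0.784 to 0.786% of the totals. Of the 10 B and plasma cell markers, which matter since plasma cells use the XBP1 arm heavily, the sum was 256.8 to 317.5 CPM in controls and 626.8 to 637.5 CPM under hypergravity. That sum came mostly from Sdc1, a syndecan gene, at 259.7 and 597.4 CPM, whereas Cd79b fell from 4.96 to 0.287 CPM and Jchain from 1.60 to 0.327 CPM, and Ighm was at 0. Of the 6 genes of this list that were tested, edgeR called 3 higher and 2 lower, so the list did not move in 1 direction. The 9 neutrophil markers summed to 314.2 to 615.6 CPM in controls and 195.0 to 230.1 CPM under hypergravity, the 5 endothelial markers to 9.71 to 15.4 and 38.7 to 44.8 CPM, and the 12 stromal markers to 67.2 to 128.5 and 53.2 to 56.5 CPM. EdgeR called 6 of the 9 neutrophil markers lower and 0 higher. It called 2 of 4 tested endothelial markers higher and 1 lower, and 1 of 10 tested stromal markers higher and 3 lower. The part of these changes in the members' values was not tested.

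**Figure D2:**
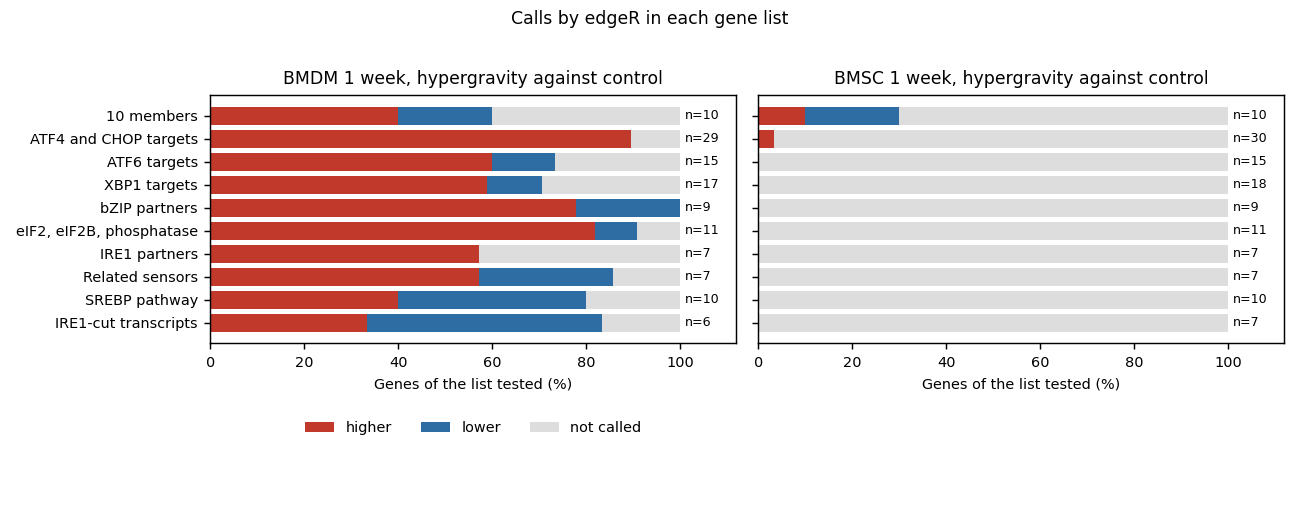
Share of the tested genes of each list (horizontal axis, %) that edgeR called higher (red) or lower (blue) or did not call (grey) in the 1 week sets, with the number tested beside each bar. In BMDM the bar of ATF4 and CHOP targets is red for 26 of 29 genes, and in BMSC nearly all bars are grey. The lists were chosen with earlier results of these data known.

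At 3 weeks in BMDM none of the 10 members was called, in a comparison where edgeR called 0.426% of all genes. No member had an unadjusted p below 0.05, and 592 of all genes had; DESeq2 called none of the members either. Atf4 stood at 203.6 and 196.2 CPM in controls and at 183.3 and 190.0 CPM under hypergravity. Ddit3 was at 36.06 and 33.5 against 30.38 and 35.27 CPM, and Ern1 at 28.34 and 26.45 against 27.25 and 25.8 CPM. Eif2ak3 was at 31.78 and 35.64 against 32.19 and 30.16 CPM. Atf4 was thus slightly lower under hypergravity with no overlap, and the ranges of the other 3 overlapped. In all, 4 members did not overlap (Atf6, Atf4 and Eif2ak4 lower and Xbp1 higher), against 37.7% of all genes. Fitted changes of the 10 lay between -0.16 and 0.15, and their 95% intervals reached from -0.89 to 0.87, both ends set by Ern1. Of the lists of targets, partners and relatives of the members, a single gene was called, the cystine exchanger gene Slc7a11 among the ATF4 targets, which rose from 30.07 to 80.61 CPM (1.46 ± 0.24, adjusted p = 0.0295). Of the 15 NF-kB genes 12 were called higher and none lower, with a median of 5.15, and the list summed to 264.3 to 266.8 CPM in these controls and to 1288 to 1583 CPM under hypergravity. The part of this rise in the members' values was not tested.

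The BMDM response itself differed between the sets for 6 members, in a comparison that uses the 1 week libraries again and calls 43.4% of all genes. As 3 weeks minus 1 week, edgeR gave -1.84 ± 0.18 for Atf4 (adjusted p = 2.77e-05), -1.85 ± 0.53 for Ern1 (0.0177), -1.03 ± 0.18 for Ddit3 (0.00108) and -0.69 ± 0.17 for Eif2ak4 (0.00884). The difference was 0.87 ± 0.21 for Eif2ak3 (0.00683) and 0.52 ± 0.19 for Mbtps1 (0.046). The Ern1 difference lost its call without 1 week hypergravity replicate 2, without either 3 week hypergravity library or without 3 week control replicate 1 (adjusted p from 0.0557 to 0.0773). The Mbtps1 difference lost it without 1 week control replicate 2, 1 week hypergravity replicate 1, either 3 week control or 3 week hypergravity replicate 1 (0.0659 to 0.162), and also with DESeq2 (0.0528) or its size factors in edgeR (0.0525). With scaling by totals, which moved the median of all genes from 0.02 to 0.24, the Eif2ak4 difference was -0.46 and lost its call (0.0595), and Eif2ak1 gained one (0.43, adjusted p = 0.0307).

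**Figure D3:**
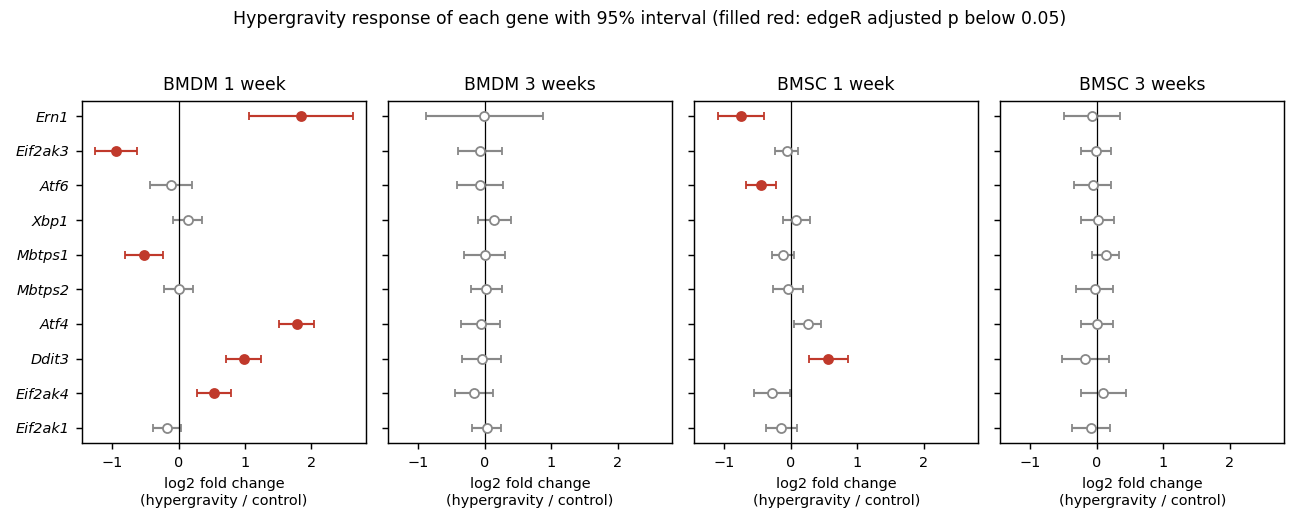
Log2 fold change of hypergravity against control (horizontal axis) with its 95% interval for each gene in the 4 comparisons, from edgeR after TMM scaling; filled red points passed an adjusted p of 0.05. The 1 week BMDM panel spans -0.94 (Eif2ak3) to 1.84 (Ern1), and both 3 week panels stay within -0.18 and 0.15.

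In BMSC at 1 week 3 members were called, against 2.72% of all 15289 genes (0.249% higher and 2.47% lower). Ern1 and Atf6 fell and Ddit3 rose, all near the threshold. Ern1 was at 40.07, 42.55 and 38.13 CPM in controls and at 30.33, 18.75 and 24.2 CPM under hypergravity (-0.76 ± 0.16, edgeR adjusted p = 0.0342). Atf6 gave 159.1, 148.2 and 155.0 against 117.9, 107.9 and 122.0 CPM (-0.45 ± 0.10, adjusted p = 0.0482). Neither gene had a hypergravity library within the control range. Ddit3 stood at 17.15, 21.5 and 15.62 CPM in controls and at 33.83, 26.33 and 22.1 CPM under hypergravity (0.57 ± 0.13, adjusted p = 0.049), where the lowest hypergravity library was just above the highest control.

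These 3 BMSC calls did not outlast several alternatives. None held when only the 6 libraries compared were fitted, in a fit of all 19 libraries, without control replicate 1, or without hypergravity replicate 2. In that order, edgeR called 0, 2, 0 and 0 of all genes there, against 416 in the main fit. The fitted changes were -0.75, -0.75, -0.76 and -0.58 for Ern1 and 0.57, 0.58, 0.53 and 0.62 for Ddit3. For Atf6 they were -0.44, -0.44, -0.43 and -0.38. A single call was left without control replicate 3 (Ern1), hypergravity replicate 1 (Ern1) or hypergravity replicate 3 (Ddit3). None held when a trend on exonic length and GC content was removed from each library, an alternative chosen after seeing the data, where Ern1 was -0.61 (adjusted p = 0.0861), Atf6 -0.24 (0.381) and Ddit3 0.57 (0.0861). Ddit3 itself got no correction in that fit, since another gene entry shares its name and no length was assigned to it. Its unchanged value therefore says nothing about the trend. With the trend removed, 83 of all genes were called. That trend, in log2 CPM per doubling of exonic length, was 0.09, 0.13 and 0.03 in the controls and 0.04, -0.06 and -0.02 under hypergravity. Ern1 and Atf6 have exonic lengths of 8173 and 9231 bases and Ddit3 of 1713 bases. Of the members not called, Mbtps1 (10539 bases) and Mbtps2 (10105) are longer, with fitted changes of -0.12 and -0.04. Eif2ak4 (7457 bases), Eif2ak3 (6026) and Eif2ak1 (5670) changed by -0.28, -0.06 and -0.14. Xbp1 (3248 bases) and Atf4 (2358) changed by 0.09 and 0.25. In BMDM, control replicate 3 of the 1 week set, the library with the high Ern1 value, had a trend of 0.08 against -0.08 and -0.03 in the other controls. Whether the length trend contributes to the values of these genes was not tested.

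**Figure D4:**
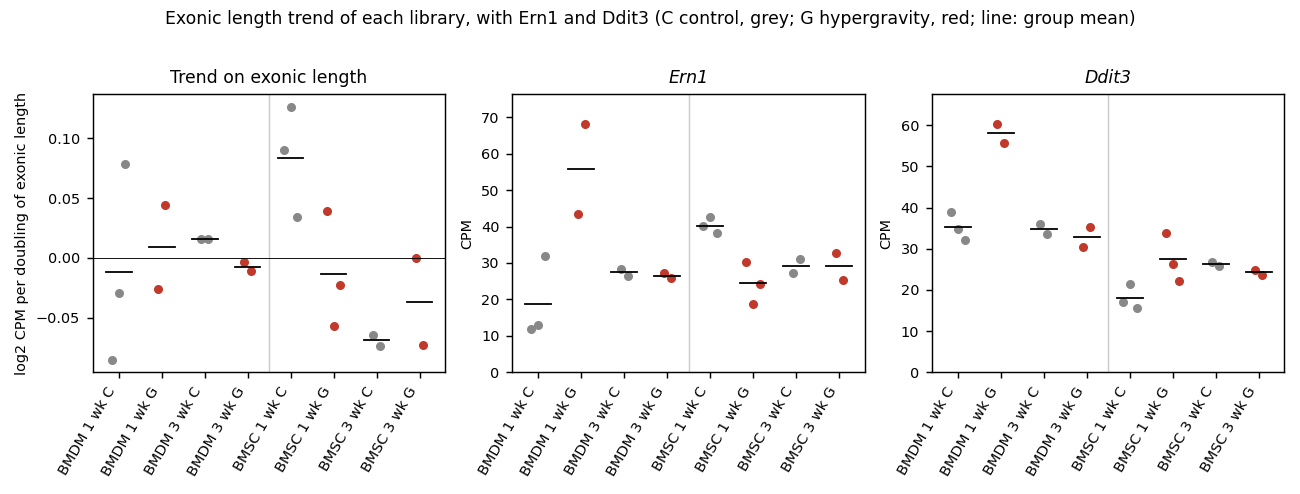
Slope of log2 CPM on the doubling of exonic length in each library (left, vertical axis) beside the CPM of Ern1 and Ddit3 (middle and right), 1 point per library with group means as lines. The 1 week BMSC controls have the highest group mean slope, the highest Ern1 and the lowest Ddit3 among the BMSC groups. A link between slope and gene values was not tested.

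The other 7 members were not called in BMSC at 1 week, with fitted changes from -0.28 to 0.25 and 95% intervals from -0.55 to 0.45. Atf4 was at 206.3, 234.0 and 221.0 CPM in controls and at 289.6, 273.3 and 245.2 CPM under hypergravity, without overlap (0.25 ± 0.09, adjusted p = 0.164). Xbp1 gave 161.5, 168.2 and 167.0 against 184.3, 177.7 and 178.4 CPM, also without overlap. Eif2ak3, at 38.89, 45.37 and 39.94 against 43.29, 40.24 and 38.18 CPM, overlapped fully. Across the 10 members 7 did not overlap, against 20.5% of all genes. Of the lists of targets, partners and relatives, Ddit4, a stress-induced inhibitor of mTOR signalling among the ATF4 targets, was the only gene called, rising from 39.1 to 56.74 CPM (0.51 ± 0.11, edgeR adjusted p = 0.0346). Among the 10 macrophage markers Mertk, a receptor for the uptake of dying cells, was called lower (156.2 to 119.0 CPM, -0.43 ± 0.09, adjusted p = 0.0368). Stromal markers summed to 5347 to 15630 CPM in these controls and to 7890 to 15990 CPM under hypergravity, and NF-kB genes to 312.2 to 323.8 and 282.0 to 317.4 CPM.

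In BMSC at 3 weeks edgeR called 0% of all genes and none of the members, although 800 genes, none of them a member, had an unadjusted p below 0.05, and DESeq2 called no member. Fitted changes of the members ran from -0.18 to 0.14, with 95% intervals from -0.53 to 0.44. Ern1 was at 27.32 and 31.05 CPM in controls and 32.87 and 25.31 CPM under hypergravity, and Atf4 at 228.3 and 243.0 against 260.0 and 235.2 CPM. Both overlapped. Ddit3 was lower without overlap, at 26.77 and 25.73 against 24.87 and 23.66 CPM, and Mbtps1 higher, at 72.77 and 70.92 against 85.9 and 79.17 CPM. With Eif2ak3, 3 members did not overlap, against 45.6% of all genes. Stromal markers summed to 2941 to 3798 CPM in these controls and to 5395 to 12100 CPM under hypergravity, and their part was not tested. The difference between the 3 week and 1 week responses in BMSC was called for no gene (0%); Ddit3 (-0.74), Ern1 (0.68) and Atf6 (0.38) had unadjusted p-values below 0.05.

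At 1 week the response of BMDM and that of BMSC differed for 5 members, where 49.6% of all genes differed. As BMDM minus BMSC, the difference was 2.60 ± 0.41 for Ern1 (edgeR adjusted p = 5.71e-05), 1.52 ± 0.15 for Atf4 (4.43e-07) and 0.81 ± 0.18 for Eif2ak4 (0.00116). It was -0.88 ± 0.16 for Eif2ak3 (0.000206) and -0.41 ± 0.14 for Mbtps1 (0.0278). Ern1 was higher than control in BMDM and lower in BMSC. The Mbtps1 difference lost its call without a count filter (adjusted p = 0.0655) and without BMDM control replicate 3, BMDM hypergravity replicate 1, BMSC control replicate 1 or BMSC hypergravity replicate 1 (0.0514 to 0.124). Ddit3, higher in both, differed by 0.40 (95% interval 0.02 to 0.79, adjusted p = 0.0764), which did not pass, although it did without BMDM control replicate 1 (0.0366) or BMSC hypergravity replicate 1 (0.011). Without BMDM control replicate 3, Atf6 differed as well (0.50, adjusted p = 0.00849). At 3 weeks no member's response differed between the cell types, where 0.251% of all genes did, and the fitted differences ran from -0.24 to 0.15.

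Without hypergravity the cell types differed most in Ddit3. Averaged over both control sets, Ddit3 was 1.76-fold higher in BMDM than in BMSC (0.82 ± 0.10, edgeR adjusted p = 3.39e-06), with all 5 BMDM controls between 32.05 and 38.9 CPM and all 5 BMSC controls between 15.62 and 26.77 CPM. Eif2ak1 was higher by 0.21 ± 0.07 (adjusted p = 0.0282), a call that was lost without any of 5 single control libraries (BMDM 1 week replicate 2, both BMDM 3 week libraries, BMSC 1 week replicate 2 and BMSC 3 week replicate 1). These were the 2 members called, where 49.8% of all genes differed. Without BMDM 1 week control replicate 3, Ern1 (-0.76) and Mbtps1 (-0.20) were also called, both lower in BMDM. Omission of BMDM 1 week control replicate 1 added Atf6 (0.24), and omission of BMSC 1 week control replicate 1 added Mbtps2 (0.20). Within BMSC, Ddit3 was also higher in the 3 week controls than in the 1 week controls (0.59 ± 0.15, adjusted p = 0.0382), the only member called in a comparison with 7.05% of genes called. That call was lost without BMSC 1 week control replicate 1 or either 3 week control (adjusted p from 0.103 to 0.235), and Eif2ak3 was called lower (-0.31) without 1 week control replicate 3. In BMDM no member differed between the control sets by edgeR or DESeq2 (3.97% of genes called; Mbtps2 and Eif2ak4 had unadjusted p-values below 0.05). Without control replicate 3 of the 1 week set, 5 members did, and Ern1, Atf6, Mbtps1, Mbtps2 and Eif2ak4 were then all higher in the 3 week controls.

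Per length, as mean CPM per kb of exons, Atf4 and then Xbp1 stood above the other 8 members in every group. Atf4 ranged from 78.9 to 226 CPM per kb over the 8 groups and Xbp1 from 38.3 to 55.5. Ddit3 (10.6 to 33.9), Atf6 (11.4 to 17.1) and Eif2ak1 (11 to 14.9) followed, with ranges that overlapped, so their order depended on the group. Mbtps1 (3.25 to 8.27), Eif2ak3 (2.24 to 6.87), Ern1 (2.31 to 6.82), Eif2ak4 (3.36 to 5.26) and Mbtps2 (2.90 to 4.41) were lowest and could not be ordered across groups. Under 1 week of hypergravity in BMDM, Eif2ak3 was the lowest of the 10 at 2.24 ± 0.48 CPM per kb (SD, n = 2) and Ern1 had moved to 6.82 ± 2.14, whereas in the controls of that set Ern1 was the lowest at 2.31 ± 1.38 (n = 3).

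As a description over the 19 libraries, which share the 1 week hypergravity BMDM group, the genes with the most similar log2 CPM to each member were found by Pearson correlation among 9721 genes. Atf4 was matched most closely by Rars, the gene of arginyl-tRNA synthetase (r = 0.985), Yipf5 (0.985) and the enolase gene Eno1 (0.982). Ern1 was matched by Dync1h1 (0.980), the dynein heavy chain gene, and by Ankrd17 and Trim56 (0.976 each). Eif2ak3 was matched by Fads1 (0.957), a fatty acid desaturase gene, with Grk5 and Dlg3, and Mbtps1 by Maml3 (0.978), with Cd93 and Rai1. Ddit3 was matched by Crem (0.952), Ctu1 and Pnrc1, Atf6 by Ahnak (0.956), Mtmr6 and Parp4, and Eif2ak1 by Ahcyl2 (0.950), Ptafr and Tpcn2. The closest genes were less similar for Eif2ak4 (Iqsec1, 0.900, with Piezo1 and Golga2), Xbp1 (Fabp5, 0.837, with LOC108167643 and Fkbp1a) and Mbtps2 (Ddx26b, 0.799, with Mctp1 and Smek2).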

How the data were processed

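The table holds unnormalized read counts per gene symbol and library, as deposited by the authors. The submitters' processing notes name HISAT2 2.0.4 and the build mm10. How reads were counted, with which annotation and strand setting, is not given in the sources used here. RNA was extracted with Trizol, per the labels' protocols.

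Counts were tested with edgeR 4.0.16 (R 4.3.3, limma 3.58.1): quasi-likelihood test, TMM scaling, filterByExpr, 1 coefficient per group, and Benjamini-Hochberg adjustment over all genes. The 9 BMDM libraries (13842 genes, 5 residual degrees of freedom) and the 10 BMSC libraries (15289 genes, 6) were fitted apart, and comparisons between cell types used all 19 libraries (15550 genes). There were 11 comparisons. Intervals are 95% intervals from the same fit. On simulated counts with 200 genes changed by a log2 of 1, edgeR recovered 95% (BMDM, 1 week), 87.5% (BMDM, 3 weeks), 95.5% (BMSC, 1 week) and 72.5% (BMSC, 3 weeks). Replicates differed by 4.3 to 97.9 times the counting variance over genes with at least 20 counts, so none was treated as a repeat of another.

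Positions, exon lengths and overlaps are from the GENCODE annotation of mm10. Motif shares leave out chromosome 18. Similar genes needed a mean of 5 CPM, and log2 CPM used a prior count of 2. All members were named, with up to 4 genes of smallest p from each list. The members and lists were chosen with earlier results of these data known. Alternatives comprised DESeq2 1.42.0, its size factors, scaling by library totals, no count filter, a filter at 1 CPM, the replicate number as a block, other library sets, omission of each library, and removal of a length and GC trend.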

Additional observations from a re-analysis of the deposited data

Results flagged for a closer look

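The BMDM response to hypergravity differed between the 3 week and the 1 week set for 6 members by a test of the difference itself in edgeR. The same test called 43.4% of all genes. As 3 weeks minus 1 week on the log2 scale, the values were -1.85 for Ern1, -1.84 for Atf4, -1.03 for Ddit3, -0.69 for Eif2ak4, 0.87 for Eif2ak3 and 0.52 for Mbtps1. Ern1, Mbtps1 and Eif2ak4 lost their calls under some alternatives.

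The 1 week response differed between BMDM and BMSC for 5 members by the same kind of test, which called 49.6% of all genes. As BMDM minus BMSC, the values were 2.60 for Ern1, 1.52 for Atf4, 0.81 for Eif2ak4, -0.88 for Eif2ak3 and -0.41 for Mbtps1. The Mbtps1 call was lost under some alternatives. Both sets of differences use the 1 week BMDM libraries.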

How the results depend on the processing

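Of 1680 member values over all alternatives and comparisons, 1583 stayed on their side of the threshold, 123 of these being uncalled values with the other sign. Another 57 lost a call, 39 gained one and 1 reversed: Mbtps1 in controls, BMDM minus BMSC, was 0.13 with the length and GC trend removed. The 6 members called in BMDM at 1 week stayed at 5 to 7 in number, and the comparisons of hypergravity with control at 3 weeks had none under any alternative. The 6 of the BMDM response difference became 4 to 6, and the 5 of the 1 week response between cell types 4 to 6. The 3 calls in BMSC at 1 week became 1 with DESeq2 size factors, 1 with scaling by library totals, 0 with the length and GC trend removed, 0 with all 19 libraries, 0 with only the groups compared, and 0 to 3 with a library left out. In the same order, calls over all genes went from 416 to 345, 282, 83, 2 and 0, and to 0 to 1109 with a library left out. The BMSC response difference went from 0 to 1 without a count filter. Controls between cell types went from 2 to 6 with scaling by totals, 4 with the replicate block, 5 with the trend removed, and 1 to 4 with a library left out. BMDM controls between sets went from 0 to 1 without a filter, 5 with the replicate block, and 0 to 5 with a library left out. BMSC controls between sets went from 1 to 2 with DESeq2, 2 with the filter at 1 CPM, 0 with the replicate block, 0 with only the groups compared, and 0 to 2 with a library left out. Causes were not tested. Same-numbered libraries did not deviate together throughout (correlations from -0.36 to 0.65), so the numbers were not taken as pairs. Groups of 2 or 3 libraries limit every comparison.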
